A study of Cavia porcellus with 8 samples.

Results

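The signals of 4 cytokine genes, interleukin-1 beta (IL-1β), tumor necrosis factor-alpha (TNF-α), interleukin-15 (IL-15) and transforming growth factor-beta (TGF-β), were examined in the guinea pig cochlea after insertion of an electrode. They were chosen by name, as 4 of the 13269 features of the array, each named by its GenBank accession: AF119622 for IL-1β, U77036 for TNF-α, AB128160 for IL-15 and AF191297 for TGF-β. All 4 belong to the genes that the study listed on these same arrays as higher after insertion, so that their rise with the normal electrode is not independent evidence of its direction. The study also measured IL-1β, IL-15 and TGF-β by quantitative RT-PCR in the same animals and reported changes in the same directions as on its arrays. Those measurements were not analyzed here. The animals were male Hartley guinea pigs in 3 groups with 1 array each. The NOR group (n = 3) had a small hole made in the cochlea near the round window and a normal silicone dummy electrode inserted, the DEX group (n = 3) had the same surgery with a silicone electrode that elutes dexamethasone, and the CNT group (n = 2) had no surgery and no electrode. Implanted animals were 7 weeks old at surgery, their cochleae were taken 7 days later, and the labels give 8 weeks of age for all 8 animals. No animal had surgery without an electrode, so that effects of the surgery, the insertion and the silicone cannot be told apart. RNA came from the whole cochlea, and fewer cells of a type and less RNA per cell cannot be told apart in these signals. The features could not be matched to markers of the cochlea, so the labelled tissue was not checked against them.

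Cytokines are secreted proteins through which cells of a tissue and of the immune system signal to each other. IL-1β and TNF-α are early mediators of inflammation that activate the transcription factors NF-κB and AP-1 and thereby raise chemokines, adhesion molecules and cyclooxygenase-2. IL-15 sustains CD8 T cells and natural killer cells and acts through its alpha receptor chain, and TGF-β restrains immune cells and drives matrix deposition and scarring. Glucocorticoids such as dexamethasone are known to repress many genes that depend on NF-κB and AP-1, IL-1β and TNF-α among them.

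The 8 arrays fell into 2 sets of 4, found from the values and not named in the labels. Set A was made up of replicates 1 and 2 of NOR and DEX, whose median signals as deposited were 395 to 405. Set B consisted of replicate 3 of each electrode together with the CNT animals, with medians from 308 to 325. Any 2 arrays of a set had between 246 and 384 deposited signal values in common, against 30 to 52 across sets. Values counted as common when they were exactly equal as deposited, wherever they stood on the 2 arrays. Signals were therefore quantile-normalized on the log2 scale, and the values below are normalized linear signals unless stated. After normalization 1617 features still differed between the sets at an adjusted p under 0.05, so differences between the sets and between NOR and CNT can be told apart only through the animals of set B.

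With the normal electrode, the mean signal of each of the 4 cytokines was higher than without surgery, and in each the 3 NOR animals all lay above both CNT animals. To be called, a feature needed an adjusted limma p under 0.05 together with a change of at least 2-fold. By this rule IL-1β, TNF-α and IL-15 rose and TGF-β did not pass, because its change was just under 2-fold. Of all features, 1.34% were called higher, and 25.5% had all NOR animals above both CNT animals, so the lack of overlap by itself set these genes little apart. An adjusted p under 0.05 with a higher signal, which TGF-β also had, was found in 4.04%.

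IL-1β, which is made as an inactive precursor and released after cleavage by caspase-1, had signals of 278, 542 and 316 in NOR replicates 1, 2 and 3 and of 103 and 107 in the 2 CNT animals. The CNT animals were close together, while NOR replicate 2 stood well above the other NOR animals. NOR averaged 379 ± 143 (SD, n = 3) and CNT 105 ± 3.10 (SD, n = 2). On the log2 scale the rise was 1.79 (SE 0.33, limma adjusted p = 0.0223), or 3.46-fold.

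TNF-α, a membrane-bound cytokine that is shed from the cell surface and acts on TNF receptors, had signals of 56.8, 48.4 and 50.6 in NOR replicates 1, 2 and 3 and of 16.4 and 17.1 in CNT. All 3 NOR animals lay close together, in both array sets. NOR averaged 52.0 ± 4.33 (SD, n = 3) and CNT 16.8 ± 0.521 (SD, n = 2). This was a rise of 1.63 on the log2 scale with an SE of 0.27 and a limma adjusted p of 0.0173, or 3.09-fold.

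IL-15 had signals of 73.6, 96.0 and 56.1 in NOR replicates 1, 2 and 3 and of 22.5 and 27.5 in CNT. NOR replicate 2 was the highest and NOR replicate 3, the NOR animal of set B, the lowest. NOR averaged 75.2 ± 19.96 (SD, n = 3) and CNT 25.03 ± 3.53 (SD, n = 2). IL-15 thus rose 2.95-fold, or 1.56 in log2 units (SE 0.31), at a limma adjusted p of 0.0292.

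TGF-β, made as a latent complex that is held in the matrix until it is activated, had signals of 597, 562 and 858 in NOR replicates 1, 2 and 3 and of 374 and 298 in CNT. Here NOR replicate 3 was the highest. Mean signals were 336 ± 54.0 (SD, n = 2) for CNT and 672 ± 162 (SD, n = 3) for NOR. This difference of 0.99 on the log2 scale (SE 0.20) had a limma adjusted p of 0.0313 and equalled 1.98-fold, with a 95% interval from 1.43-fold to 2.75-fold. It passed the 2-fold rule with the signals as deposited (log2 fold change 1.24, adjusted p = 0.0167), without NOR replicate 1 (1.06, adjusted p = 0.0467) and once the array set was a term of the model (1.12, adjusted p = 0.0172). In other settings its limma adjusted p was above 0.05. It was 0.0553 with a floor of 20 for the linear signals and 0.0762 with only the 2 groups compared. Without NOR replicate 2 it was 0.0587, and without DEX replicate 1 it was 0.0617. The log2 fold change of TGF-β fell to 0.80 without NOR replicate 3 and to 0.82 without CNT replicate 2.

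**Figure D1:**
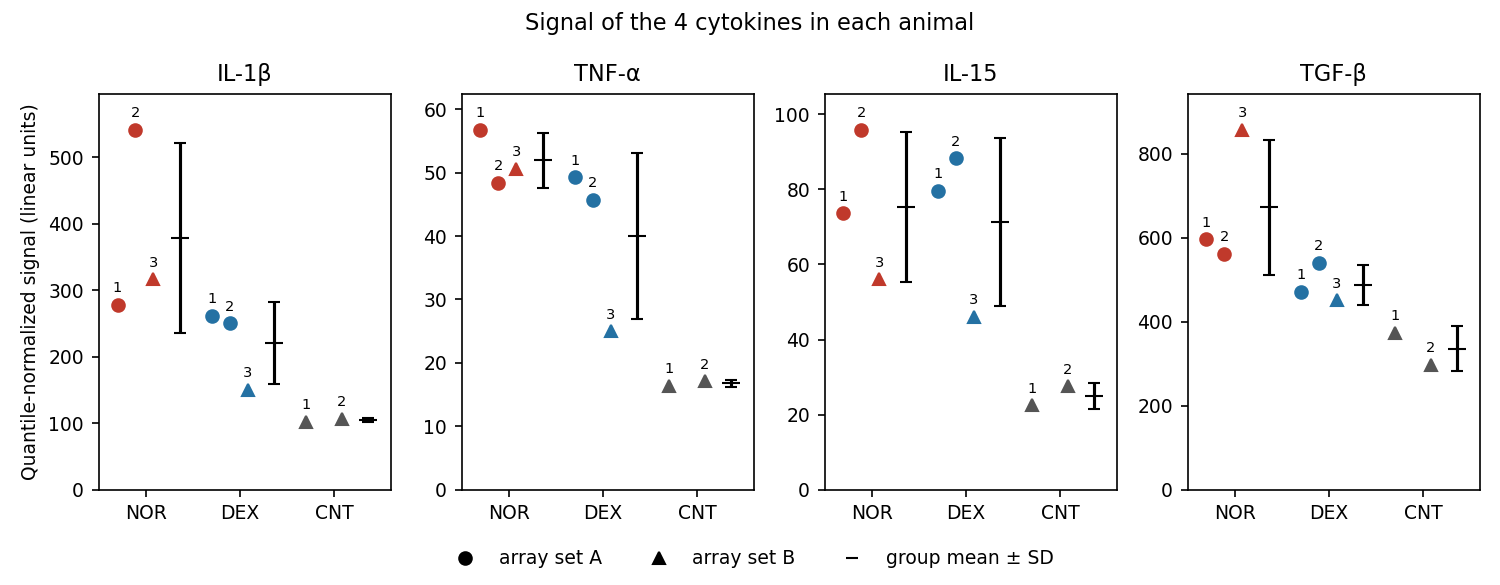
Quantile-normalized signal (linear units, vertical axis, starting at 0 in each panel) of IL-1β, TNF-α, IL-15 and TGF-β in every animal of the NOR, DEX and CNT groups, with circles for array set A, triangles for array set B, replicate numbers above the points, and the group mean ± SD beside them. NOR replicate 2 has the highest IL-1β signal (542), NOR replicate 3 the highest TGF-β signal (858), and DEX replicate 3 the lowest signal of the DEX group in each panel.

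The calls against CNT rested on few animals and on the setting. With a floor of 20 for the linear signals none of the 3 was called, at a limma adjusted p of 0.0501 for IL-1β, 0.0553 for TNF-α, whose log2 fold change was then 1.37, and 0.0610 for IL-15. The methods' t-test, run here on the normalized linear signals, gave IL-1β an unadjusted p of 0.0820. After adjustment its p was 0.299 for IL-1β, 0.121 for TNF-α, 0.240 for IL-15 and 0.286 for TGF-β. The study printed a lower p for IL-1β than the unadjusted value here, beside averages that match the signals as deposited. Without CNT replicate 1 the adjusted p was 0.143 for IL-1β, 0.124 for TNF-α and 0.183 for IL-15, and without CNT replicate 2 it was 0.114, 0.0964 and 0.117 in the same order. Without NOR replicate 2 it was 0.0526, 0.0554 and 0.0823, and the call of IL-15 was also lost without NOR replicate 1 (adjusted p = 0.0566) and without DEX replicate 1 (adjusted p = 0.0539). The log2 fold changes moved less, staying between 1.50 and 1.98 for IL-1β, between 1.56 and 1.68 for TNF-α and between 1.37 and 1.75 for IL-15 when single animals were dropped. The 2-sided exact permutation test over animals gave p = 0.2 for each of the 4 cytokines, the smallest value that 3 animals against 2 allow.

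Because both CNT animals were on arrays of set B, NOR replicate 3 was also compared with them inside that set. It was above the CNT mean 3.02-fold for IL-1β, 3.02-fold for TNF-α, 2.25-fold for IL-15 and 2.57-fold for TGF-β. This compares 1 animal with 2, without a test, and 3.32% of all features were 2-fold or more higher in it. The fit with the array set as a term gave log2 fold changes of 1.44 for IL-1β, 1.30 for TNF-α and 1.08 for IL-15, and all 4 cytokines were then called, in a fit that called 2.00% of all features higher.

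With the dexamethasone-eluting electrode the mean signal of all 4 cytokines was lower than with the normal electrode, but no cytokine passed the test. A lower mean by itself was found in 50.5% of all features. The means of IL-1β, TNF-α and TGF-β were at a ratio to NOR of 0.8 or less, the size that the study used to class a gene as partly returned, while that of IL-15 was not. With array weights the log2 fold change was -0.89 for IL-1β, -0.09 for TNF-α and -0.29 for TGF-β, and only IL-1β stayed at 0.8 or less. These weights were 5.48 for DEX replicate 1 and 3.22 for NOR replicate 2, against 0.23 to 0.73 for the other NOR and DEX animals. The weighted values thus rest mostly on 1 animal of each electrode. Over all features 0 (0%) had an adjusted p under 0.05 in limma. Of all features 329 (2.48%) had an unadjusted p under 0.05, and 1.27% did so with a lower signal in DEX. A ratio of 0.8 or less was found in 3.26% of all features, and 2.81% had all DEX animals below all NOR animals. The 4 cytokines come from a list chosen through high signals in the same NOR animals, which by itself favours a lower value in DEX. Shares of all features, not chosen in this way, are therefore a description and no test of these falls.

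For IL-1β the DEX animals had signals of 262, 250 and 150 in replicates 1, 2 and 3, with a mean of 221 ± 61.3 (SD, n = 3). All 3 lay below the lowest NOR animal, NOR replicate 1 at 278. The gap was small, and in the signals as deposited DEX replicate 1 at 289 was just under NOR replicate 3 at 290. DEX stood at 0.591 of NOR, which is -0.76 in log2 units (SE 0.29), with a 95% interval from -1.43 to -0.09. The unadjusted limma p was 0.0316 and the adjusted p was 1.0. Of all features, most of them not listed for high NOR signals as IL-1β was, 0.271% had a larger fall. Without NOR replicate 2 the log2 fold change was -0.47, and without DEX replicate 3 it was -0.50.

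For TNF-α the DEX animals had signals of 49.2, 45.7 and 25.01 in replicates 1, 2 and 3, with a mean of 40.0 ± 13.1 (SD, n = 3). DEX replicate 1 lay within the range of the NOR animals, DEX replicate 2 just below the lowest of them at 48.4, and DEX replicate 3 closer to the CNT animals than to any NOR animal. DEX stood at 0.739 of NOR, which is -0.44 in log2 units (SE 0.24), with an interval from -0.99 to 0.12 and a limma adjusted p of 1.0. Without DEX replicate 3 the log2 fold change was -0.13.

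For IL-15 the DEX animals had signals of 79.6, 88.3 and 46.0 in replicates 1, 2 and 3, with a mean of 71.3 ± 22.3 (SD, n = 3). DEX replicates 1 and 2 lay within the range of the NOR animals, and DEX replicate 3 below the lowest of them at 56.1. The ratio was 0.935, or -0.10 on the log2 scale with an SE of 0.28 and a limma adjusted p of 1.0, and the interval from -0.75 to 0.55 allows a change of up to 1.47-fold upwards or down to 0.596 of the NOR level. The direction turned without NOR replicate 2, to 0.10, and without DEX replicate 3, to 0.19.

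For TGF-β the DEX animals had signals of 471, 541 and 451 in replicates 1, 2 and 3, with a mean of 488 ± 47.1 (SD, n = 3). All 3 lay below the lowest NOR animal, NOR replicate 2 at 562. The ratio was 0.736, or -0.44 on the log2 scale (SE 0.18), with an interval from -0.86 to -0.02. The unadjusted limma p was 0.0423 and the adjusted p was 1.0, and without NOR replicate 3 the log2 fold change was -0.25. By the 2-sided exact permutation test over animals, DEX against NOR gave p = 0.1 for IL-1β and TGF-β, the smallest value that 3 against 3 allow, 0.2 for TNF-α and 0.7 for IL-15. The methods' t-test, run here on the normalized linear signals, gave an unadjusted p of 0.153 for IL-1β, 0.207 for TNF-α, 0.832 for IL-15 and 0.130 for TGF-β.

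**Figure D2:**
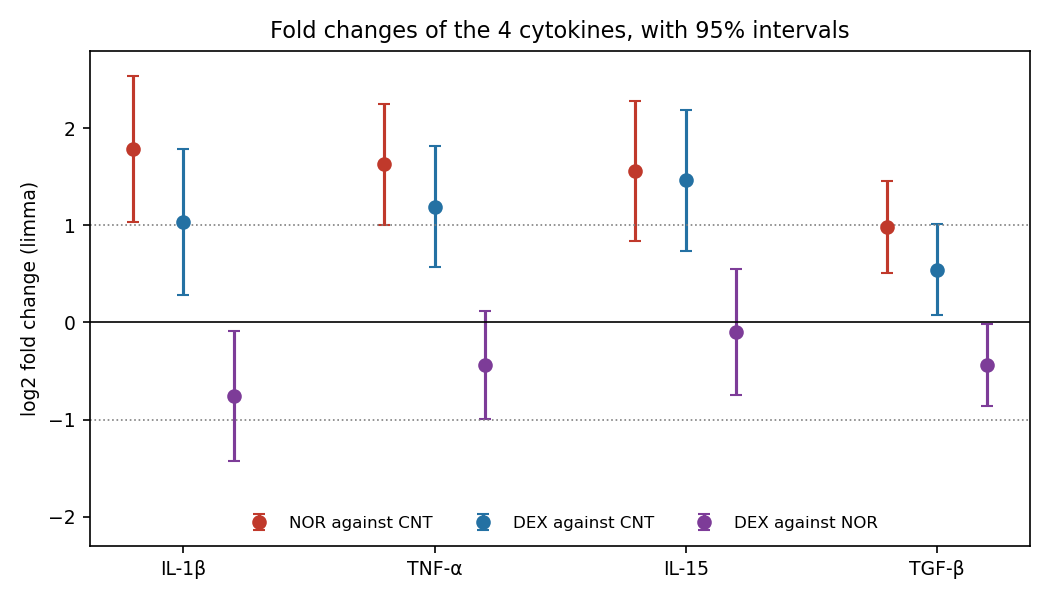
Log2 fold change from limma (vertical axis, points) with its 95% interval (bars) for each cytokine in NOR against CNT, DEX against CNT and DEX against NOR, where dotted lines mark 2-fold. The intervals of DEX against NOR include 0 for TNF-α and IL-15 and end just short of 0 for IL-1β (-0.09) and TGF-β (-0.02).

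The difference between DEX and NOR was not of the same size in the 2 array sets. Between the 2 animals of each electrode in set A, the log2 difference of DEX and NOR was -0.60 for IL-1β, -0.14 for TNF-α, -0.00 for IL-15 and -0.20 for TGF-β. Set B has a single animal of each electrode, hence no replicates, and there it was -1.07, -1.02, -0.29 and -0.93 in the same order. IL-1β was thus the sole cytokine of the 4 that was at a ratio of 0.8 or less in both sets, 0.660 in set A and 0.475 in set B. Its value in set A rested mostly on NOR replicate 2, at 542. NOR replicate 1, at 278, was close to the DEX animals of that set, at 262 and 250. Over all features the median log2 difference was -0.00 in set A and -0.01 in set B, its SD over features was 0.19 in set A and 0.40 in set B, and 2.86% of the features in set A and 14.6% in set B were at a ratio of 0.8 or less. Whether the sets differed in the effect of dexamethasone was not tested.

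**Figure D3:**
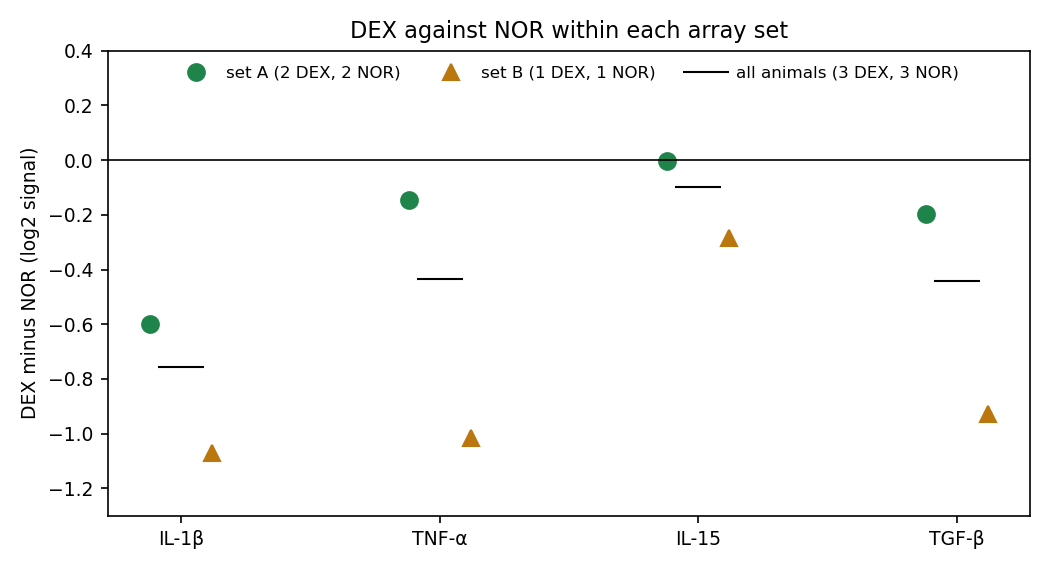
Log2 signal of DEX minus NOR (vertical axis) for each cytokine, shown for array set A (circles, 2 animals per electrode), array set B (triangles, 1 animal per electrode) and all animals (lines). In TNF-α, IL-15 and TGF-β set A lies between -0.20 and 0, whereas in IL-1β both sets lie at -0.60 or below. The IL-1β value of set A rests mostly on NOR replicate 2 (signal 542, against 278 in NOR replicate 1).

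Compared with CNT, the signals of the DEX animals were still above both CNT animals in all 4 cytokines, as in 25.4% of all features. The comparison shares its CNT animals with that of NOR and CNT. TNF-α was 2.29-fold above CNT, or 1.19 in log2 units (SE 0.27), at a limma adjusted p of 0.0482. IL-15 was 2.76-fold above CNT, or 1.46 in log2 units (SE 0.31), at 0.0421. These 2 cytokines were called, against 0.957% of all features, and 2.47% had a higher signal with the adjusted p alone under 0.05. IL-1β was 2.05-fold above CNT, or 1.03 in log2 units (SE 0.33), and its limma adjusted p of 0.104 did not pass. It was called with the replicate number as a block (1.21, adjusted p = 0.0317), where 1.61% of all features were called higher, and not with the array set as a term (0.68, adjusted p = 0.170). The block joins the CNT animals, all of set B, to electrode animals of set A by number alone. TGF-β was 1.46-fold above CNT, or 0.54 in log2 units (SE 0.20), and was not called (adjusted p = 0.152).

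The DEX calls were close to the threshold and rested on several animals. Those of TNF-α and IL-15 were both lost without NOR replicate 1 (adjusted p of 0.0654 and 0.0628), NOR replicate 2 (0.0821 and 0.0598), DEX replicate 1 (0.144 and 0.140), DEX replicate 2 (0.123 and 0.106), CNT replicate 1 (0.252 and 0.254) or CNT replicate 2 (0.194 and 0.153). In the fit that holds the array set the log2 fold changes were 0.87 for TNF-α and 0.98 for IL-15, both under 2-fold, and 1.38% of all features were called higher there. DEX replicate 3, the DEX animal of set B, was above the CNT mean 1.44-fold for IL-1β, 1.49-fold for TNF-α, 1.85-fold for IL-15 and 1.35-fold for TGF-β. Set beside the rise with the normal electrode, the log2 rise present in DEX was 57.7% for IL-1β, 73.3% for TNF-α, 93.8% for IL-15 and 55.2% for TGF-β, as a description without a test.

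The responses of the 4 cytokines were then compared with each other in 6 pairs. The log2 ratio of 2 cytokines was taken within each array, which removes any factor common to the array, and limma was fitted to the ratios of all features to a cytokine. In these fits every ratio carries the spread of the cytokine it is taken to, so that limma estimated infinite prior degrees of freedom, beside 5 residual ones. Its intervals and p-values for pairs thus take the spread as known, are not those of a test on 8 animals, and are given as the planned fit beside the exact permutation test, which no pair could pass. In NOR against CNT the order of the rises was IL-1β, TNF-α, IL-15 and TGF-β. IL-1β exceeded TNF-α by 0.16 (95% interval -0.75 to 1.08) and IL-15 by 0.23 (-0.69 to 1.15) on the log2 scale, and TNF-α exceeded IL-15 by 0.07 (-0.73 to 0.87). The animals overlapped in these 3 pairs. The log2 fold change of TGF-β was smaller than that of IL-1β by 0.81 (-0.11 to 1.72), than that of TNF-α by 0.64 (-0.16 to 1.44) and than that of IL-15 by 0.58 (-0.32 to 1.47). The limma adjusted p of these 3 differences was 0.0865, 0.117 and 0.209, so that no pair passed the test. In the ratios of IL-1β and of TNF-α to TGF-β all 3 NOR animals lay above both CNT animals, as in the ratio of 0.641% of all features to TGF-β, while in that of IL-15 to TGF-β the animals overlapped. The gap was small in the ratios of IL-1β and TNF-α. Relative to the CNT mean, NOR replicate 3 stood at 0.23 and CNT replicate 2 at 0.20 on the log2 scale, in both. Most features, unlike IL-1β and TNF-α, were not listed for high NOR signals, so the share is a description.

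With the replicate number as a block, the differences from TGF-β passed the threshold, at 1.05 for IL-1β (limma adjusted p = 0.00945), 0.87 for TNF-α (0.0150) and 0.88 for IL-15 (0.00187). This block sets CNT animals of set B against electrode animals of set A that share only their number. In the fit that holds the array set the differences from TGF-β were 0.32, 0.18 and -0.04 and did not pass. They also passed without NOR replicate 3 for IL-1β (1.09, adjusted p = 0.0369) and IL-15 (0.96, adjusted p = 0.0384), and without DEX replicate 3 for TNF-α (0.64, adjusted p = 0.0242). In the planned fits, with all animals, 97.7% of the features differed from IL-1β, 97.4% from TNF-α and 95.2% from IL-15. The adjustment over all features therefore changes the p-values little. The 2-sided exact permutation test gave p = 0.2, the smallest possible, for IL-1β and TNF-α against TGF-β and between 0.4 and 1 for the other 4 pairs.

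In DEX against NOR the change of IL-1β and that of IL-15 were the farthest apart. The difference of IL-1β from IL-15 was -0.66 on the log2 scale (95% interval -1.48 to 0.16, limma adjusted p = 0.149), and the ratio of IL-1β to IL-15 was lower in all 3 DEX animals than in any NOR animal (exact permutation p = 0.1, and 0.6 after Benjamini-Hochberg adjustment over the 6 pairs). Of all features, 41.2% were like IL-15 in this respect. The other 5 differences lay between -0.34 and 0.34, with intervals that reached from -1.14 to 1.14, and none passed the test. With array weights the differences of IL-1β from TNF-α (-0.80), IL-15 (-0.70) and TGF-β (-0.60) did pass in limma. That fit rested mostly on DEX replicate 1 (weight 5.48) and NOR replicate 2 (weight 3.22), the animal with the highest IL-1β signal. Without weights, 0.098% of all features differed from IL-1β in this comparison, 0.0528% from TNF-α and 0.0226% from IL-15. In DEX against CNT, 1 of the 6 pairs passed in limma, IL-15 over TGF-β by 0.92 (interval 0.03 to 1.81, adjusted p = 0.0467), but the exact permutation p was 0.2, and 0.3 after adjustment over the 6 pairs. In this comparison 93.7% of all features differed from IL-15, 85.7% from TNF-α and 45.6% from IL-1β. That difference was lost without NOR replicate 1 (0.92, adjusted p = 0.0661), DEX replicate 1 (0.79, 0.148), DEX replicate 2 (0.81, 0.109), CNT replicate 1 (0.61, 0.339) or CNT replicate 2 (1.23, 0.0575). Leaving out DEX replicate 3 instead brought TNF-α over TGF-β past the threshold (0.90, adjusted p = 0.00734), as did the replicate block (0.88, adjusted p = 0.0156). With the array set as a term neither pair passed, at 0.30 for IL-15 over TGF-β (adjusted p = 0.350) and 0.19 for TNF-α over TGF-β (adjusted p = 0.634).

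**Figure D4:**
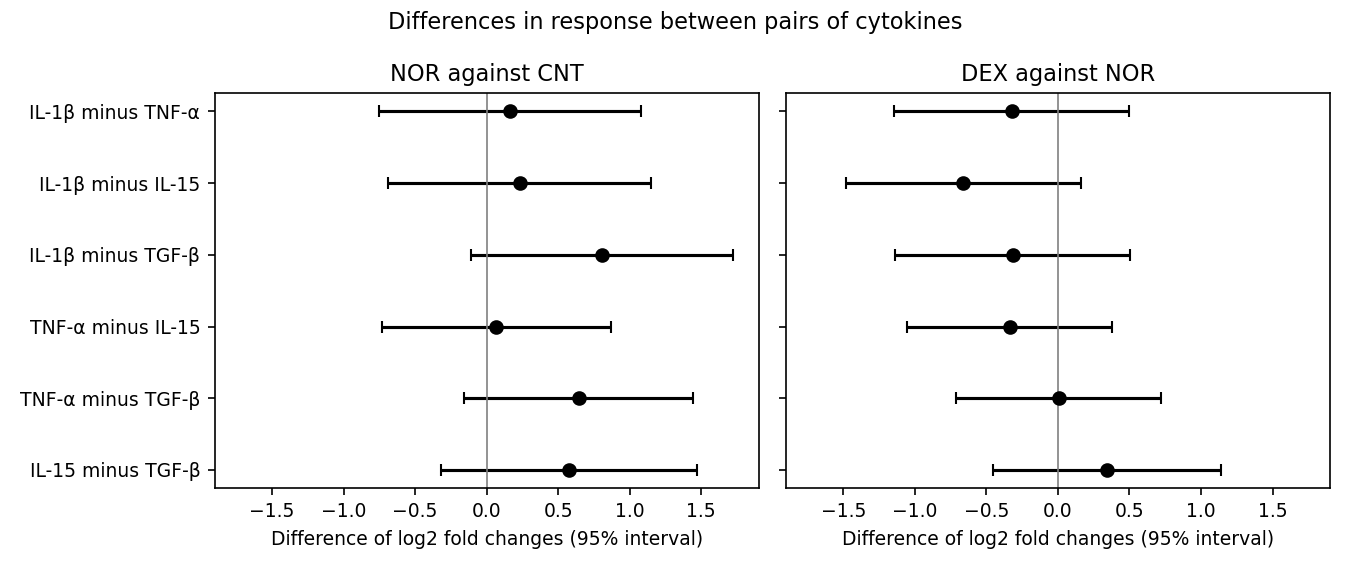
Difference of the log2 fold changes of 2 cytokines (horizontal axis, points) with its 95% interval (bars) for the 6 pairs, in NOR against CNT (left) and DEX against NOR (right). Every interval includes 0, and the largest differences are IL-1β over TGF-β after insertion (0.81) and IL-1β below IL-15 with dexamethasone (-0.66).

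Genes that act with these cytokines were described from lists drawn from the study's own list of genes higher after insertion. Their rise in NOR is again not independent evidence, and a fall from NOR to DEX is favoured by that choice. Known targets of IL-1β and TNF-α were the chemokines CCL2, CXCL1 and CCL5, cyclooxygenase-2 (COX-2) and tissue factor (F3), 5 genes with 6 features. Of these 6 features 2 were called higher in NOR, against 1.34% of all features, CCL2 by 2.41 (SE 0.42) in log2 units at a limma adjusted p of 0.0194 and F3 by 1.56 (SE 0.19) at 0.00875, and the median log2 fold change was 1.24, against 0.01 over all features. Between DEX and NOR 0 were called, 2 had a ratio of 0.8 or less (3.26% of all features) and 2 a higher signal by at least the inverse ratio (3.40% of all features), with a median of -0.23. F3, which starts blood coagulation, was the sole feature of the list whose DEX animals all lay below the NOR animals, as in 2.81% of all features, at a log2 fold change of -0.76 (SE 0.17), a value like that of IL-1β. CXCL1, a neutrophil attractant, had a log2 fold change of 0.63 (SE 0.29) and CCL2, a monocyte attractant, one of 0.37 (SE 0.38), opposite in sign to all 4 cytokines. The values of COX-2 (-0.29) and of both CCL5 features (-0.35 and -0.18) had the sign of the cytokines, with overlapping animals. The sign of CCL2 differed between the array sets, 0.86 in set A and -0.62 in set B, as did that of the CCL5 features, 0.26 and 0.25 in set A and -1.57 and -1.03 in set B.

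Partners of IL-15 and TGF-β were the IL-15 receptor alpha chain (IL15Ra), the T cell genes CD8-α and CD8-β, fibrillin-1 (FBN1), which binds latent TGF-β complexes in the matrix, and transglutaminase (TGM), 5 genes with 1 feature each. In NOR 3 of the 5 were called higher than in CNT, against 1.34% of all features. In log2 units IL15Ra rose by 1.09 (SE 0.23), CD8-α by 1.44 (SE 0.21) and CD8-β by 1.09 (SE 0.14), at limma adjusted p of 0.0326, 0.0132 and 0.00898. FBN1 had a log2 fold change of 0.92 (adjusted p = 0.0793) and TGM one of 1.23 (adjusted p = 0.0510), neither called. With dexamethasone 0 of the 5 were called against NOR. IL15Ra had a log2 fold change of 0.25 (SE 0.21) there, beside -0.10 for IL-15, and remained called above CNT with 1.35 (SE 0.23, adjusted p = 0.0249). From NOR to DEX the log2 differences were -0.39 for FBN1 and -0.55 for TGM, beside -0.44 for TGF-β, and in both the animals overlapped. In array set A the difference was 0.02 for FBN1 and -0.22 for TGM, and in set B it was -1.20 and -1.22.

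Markers of leukocytes were drawn from the same list of the study, of genes higher after insertion. Their rise in NOR beside the cytokines is thus not independent evidence, and a fall in DEX is favoured by that choice. The leukocyte list held 10 genes with 12 features, namely CD8-α, CD8-β, CD18, C3AR1, CYBA, the 3 Fc-gamma receptor features, MHC class II and GPR34. CD18 is the symbol that the study printed, beside the description Mo1-alpha, and which chain the feature measures was not checked. By the same rule 8 of the 12 features rose from CNT to NOR, against 1.34% of all features. CD8-α and CD8-β stand in both this list and the one above, and no feature was at 0 in CNT. The summed signal of the 12 features was 7143 to 7569 in CNT, 13667 to 23319 in NOR and 16360 to 20663 in DEX. The ranges of NOR and DEX overlapped, in a sum that depends mostly on the brightest features. Between DEX and NOR the median log2 difference was -0.05, 0 features were called, and 1 had a ratio of 0.8 or less (3.26% of all features). A higher signal by the inverse ratio was found in 3 (3.40% of all features), the Fc-gamma receptor features, with log2 fold changes from 0.64 to 0.76. MHC class II, which presents antigen to CD4 T cells, was the feature whose DEX animals all lay below the NOR animals (2.81% of all features), with a log2 fold change of -0.45 (SE 0.15). In array set B all 12 features had a lower signal in DEX than in NOR, against 4 of 12 in set A, in the same direction as the larger differences of the cytokines in set B. Of all features, 50.9% were lower in DEX in each set. The part of leukocyte numbers in the cytokine signals was not tested.

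The genes of these lists whose signals ran closest to each cytokine were found by the root mean square difference of log2 signals over the 8 arrays, each gene taken relative to its CNT mean. For IL-1β these were F3 (0.39), CD8-α (0.39) and GPR34 (0.45), and for TNF-α they were CD8-α (0.28), F3 (0.29) and GPR34 (0.34). For IL-15 they were CD8-α (0.33), IL15Ra (0.37) and GPR34 (0.39). TGF-β ran closest to CYBA (0.22), C3AR1 (0.22) and FBN1 (0.28), none of which was among the 3 closest list genes of the other cytokines. The share of all features that lay closer than these list genes was 0.0528% to 0.181% for IL-1β, 0.0302% to 0.136% for TNF-α, 0.121% to 0.226% for IL-15 and 0.369% to 1.44% for TGF-β. The cytokines and the list genes were all listed for higher signals in these NOR animals, unlike most features. That choice by itself favours small shares, which are a description and no test. Among the 4 cytokines TNF-α and IL-15 were the closest pair (0.29), with IL-1β at 0.34 from TNF-α and 0.35 from IL-15, while TGF-β was 0.64 to 0.79 from the others, and between 35.7% and 58.4% of all features lay closer to TGF-β than these did. The spread between animals followed no common order. In NOR the signals ranged over 1.95-fold in IL-1β, 1.17-fold in TNF-α, 1.71-fold in IL-15 and 1.53-fold in TGF-β, and in DEX over 1.74-fold, 1.97-fold, 1.92-fold and 1.20-fold in the same order.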

How the data were processed

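According to the labels and the methods of the study, Cy3-labeled cDNA of each cochlea was hybridized to a 1-color NimbleGen array, and read with an Agilent scanner. The study treated different probes of a gene as 1 gene in its analysis, but CCL5, C3AR1 and GPR34 have 2 deposited features each. For each of 13269 features the authors deposited a linear intensity on every array. The submitters' processing notes name RMA, a procedure of background correction, normalization and summary over probes, without its settings. Signals ran from 1.86 to 43479. Sequencing depth does not apply, and precision is limited by how few arrays there are.

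The 4 cytokines and the gene lists were chosen with earlier results of these data known. The files hold no gene names. The cytokines and list genes were matched to features through the group averages that the study printed, each to 1 feature except CCL5, C3AR1 and GPR34, whose averages were those of 2 features. The RefSeq gene table of the guinea pig matched 0 of the accessions. Genes of the lists were named with values where DEX and NOR animals did not overlap, and for each cytokine the 3 closest list genes were named. Other list genes named were chosen after their values were seen.

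Log2 signals of the 8 arrays were quantile-normalized, and a limma model with the 3 groups and no covariates was fitted to all features, with Benjamini-Hochberg adjustment over all of them (R 4.3.3, limma 3.58.1, prior degrees of freedom 2.92). The fold minimum of the calls was 2, at an adjusted p below 0.05, and was not applied to DEX against NOR. For pairs of cytokines the same model was fitted to log2 ratios within each array, and there the prior degrees of freedom were infinite. The t-test of the methods was run on the normalized linear signals. Array sets were arrays with at least 150 signal values in common.

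NOR and DEX residuals of the same replicate number correlated at 0.22, 0.36 and 0.53 across features, above the limit of 0.1 for a pairing. For different numbers the correlation was 0.21 and 0.33 where both arrays were of set A, and -0.44 to -0.27 where they were of different sets, so the pairing cannot be told apart from the array sets. The replicate block was fitted as an alternative. Each sample came from an animal of its own.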

Additional observations from a re-analysis of the deposited data

How the results depend on the processing

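Of 306 tested values under alternatives other than leaving out an animal, 257 kept their direction and their side of the threshold, and the others follow, as log2 values. The 12 values from ratios of linear averages have no test and moved by less than the SD between animals. Of 47 counts, 11 moved strongly and follow. Smaller moves were from 3 called to 4 in NOR against CNT (signals as deposited, array set) or to 2 (unadjusted t-test), and from 2 to 3 in DEX against CNT (array weights, block). The cause of each change was not tested. For NOR against CNT, TGF-β passed with the signals as deposited (1.24) and with the array set as a term (1.12). With a floor of 20, IL-1β (1.79), TNF-α (1.37) and IL-15 (1.56) did not pass and 0 cytokines were called. The methods' t-test gave 1.85 for IL-1β, not passed before adjustment, and after adjustment TNF-α (1.63) and IL-15 (1.59) did not pass either, again with 0 called. For DEX against CNT, IL-15 did not pass with the signals as deposited (1.41), cyclic loess (1.38), the floor (1.46), the methods' t-test (1.51) or the array set (0.98). TNF-α did not pass with median centring (0.93), the floor (0.94), the t-test (1.254), only the 2 groups compared (1.19) or the array set (0.87). The number called was 1 with cyclic loess, median centring, only the 2 groups or the signals as deposited, and 0 with the floor, the t-test or the array set. IL-1β passed with array weights (1.27) and with the replicate block (1.21). In DEX against NOR 1 cytokine had a ratio of 0.8 or less with array weights.

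Among the pairs in NOR against CNT, TNF-α minus IL-15 reversed with the floor (-0.19), array weights (-0.26) and the replicate block (-0.011), and IL-15 minus TGF-β with the array set (-0.042). TNF-α minus TGF-β passed with only the 2 groups (0.64), array weights (0.77) and the block (0.87), IL-1β minus TGF-β with array weights (1.36) and the block (1.05), and IL-15 minus TGF-β with array weights (1.04) and the block (0.88). Array weights, in DEX against NOR, brought IL-1β past the threshold against TNF-α (-0.80), IL-15 (-0.70) and TGF-β (-0.60) and reversed TNF-α minus IL-15 (0.10). In DEX against CNT, IL-1β minus TNF-α reversed with the signals as deposited (0.038), median centring (0.038) and the floor (0.094), and IL-1β minus TGF-β with the array set (-9.8e-05) and passed with array weights (0.75). TNF-α minus TGF-β passed with array weights (0.97) and the block (0.88). IL-15 minus TGF-β did not pass with the signals as deposited or median centring (0.62), cyclic loess (0.88) or the array set (0.30). The replicate block changed no other call.

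With each animal left out in turn, where a group keeps 1 CNT animal that is assumed to vary like the other groups, NOR against CNT ranged from 1.50 to 1.98 for IL-1β, from 1.56 to 1.68 for TNF-α, from 1.37 to 1.75 for IL-15 and from 0.80 to 1.15 for TGF-β, with 0 to 3 called. DEX against NOR ranged from -0.95 to -0.47, from -0.62 to -0.13, from -0.29 to 0.19 and from -0.56 to -0.25 in the same order, with 0 called and 2 to 3 at a ratio of 0.8 or less. DEX against CNT ranged from 0.89 to 1.29, from 1.01 to 1.50, from 1.28 to 1.75 and from 0.38 to 0.71, with 0 to 2 called. In NOR against CNT the pairs ranged from -0.18 to 0.42 for IL-1β minus TNF-α, from 0.40 to 1.09 for IL-1β minus TGF-β, from -0.11 to 0.31 for TNF-α minus IL-15, from 0.45 to 0.85 for TNF-α minus TGF-β and from 0.27 to 0.96 for IL-15 minus TGF-β. IL-1β minus IL-15 ranged there from 0.12 to 0.42. For DEX against NOR the pairs ranged from -0.58 to 0.017 for IL-1β minus TNF-α (reversed without NOR replicate 2), from -0.60 to 0.090 for IL-1β minus TGF-β (likewise), from -0.20 to 0.26 for TNF-α minus TGF-β and from -0.039 to 0.65 for IL-15 minus TGF-β. TNF-α minus IL-15 ranged there from -0.58 to -0.16. In DEX against CNT the pairs ranged from 0.45 to 0.90 for TNF-α minus TGF-β and from 0.61 to 1.23 for IL-15 minus TGF-β. IL-1β minus TGF-β ranged there from 0.29 to 0.69, and TNF-α minus IL-15 from -0.38 to -0.16. Signal over background is unknown here, so the limit of detection for the dim TNF-α and IL-15 features could not be given.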
